A study of Homo sapiens with 12 samples.

Results

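The cell cycle and DNA replication genes described here are 55 genes listed by the phase in which they are known to act. The list holds 17 genes of G1/S (cyclins and CDKs of G1, E2F and pocket proteins, CDK inhibitors), 17 of S phase (origin licensing, replication fork, dNTP supply) and 21 of G2/M (mitotic entry, mitotic kinases and checkpoint, spindle and chromosome proteins). All 55 were found among the 58735 genes of the count tables, and all 55 passed the filter of at least 10 reads in at least 3 RNA-seq libraries, which left 20552 genes for the test. Counts of the members in a single RNA-seq library ran from 282 to 43883 reads.

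The samples were 293T4A cells, a human embryonic kidney line (293T) that carries a doxycycline-inducible 4EBP1-4A construct in the lentiviral vector LT3REVIR. They were used as a sorted GFP-positive population, with no single clone named. In 4EBP1-4A the regulatory phosphorylation sites of 4EBP1 (gene EIF4EBP1), the repressor of the cap-binding protein eIF4E, are replaced by alanine. Control cells received DMSO (DMSO, 3 replicates per assay) and induced cells received doxycycline at 2 mg/mL (DOX, 3 replicates per assay). The sample protocol gives 12 h of treatment, whereas the series design gives 2 h and the text of the study names a longer time. Both groups carried the construct and were exposed to cycloheximide before harvest. Each treatment had 3 RNA-seq and 3 ribosome footprint (Ribo-seq) libraries, 12 in all, each labelled as a sample of its own. No label says whether an RNA-seq and a Ribo-seq library came from the same culture. The study calls them 3 biological replicates, but neither it nor the labels say whether they were separate cultures. The p-values therefore measure only the spread between these samples, which may be technical.

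The cell cycle is driven by cyclins bound to CDKs. At G1/S, cyclin D with CDK4 or CDK6 and cyclin E with CDK2 phosphorylate the pocket proteins (RB1, RBL1), which frees E2F factors to transcribe S phase genes. Origins are licensed when ORC, CDC6 and CDT1 load the MCM2-7 helicase, and GMNN blocks CDT1 after licensing. At G2/M, cyclin B with CDK1 starts mitosis, and the genes of this phase are transcribed through MuvB complexes with MYBL2 and FOXM1. In 293T cells the SV40 large T antigen and adenovirus E1A bind pocket proteins, so that E2F control is not that of normal cells. The eIF4E repressor 4EBP1 is known for restraining the translation of growth and cell cycle mRNAs.

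Many of the promoters at hand, but not all, carry the sequence elements for which their phases are known. A few are shown because genes of a phase are usually read together through these elements. RefSeq promoters (GRCh38.p14, from 250 bases before to 50 bases after the start of transcription) were at hand for 43 of the 55 genes. The cell cycle genes homology region (CHR), the element bound by MuvB complexes, was searched as TTTGAA or TTCGAA on both strands. It was present in 9 of 15 G2/M promoters (60.0%), in 2 of 15 S promoters and in 1 of 13 G1/S promoters, against 16.6% of all 27305 promoters in the table. The windows below run 5′ to 3′ on the strand of the gene, with the CHR in capitals.
CCNB2, chr15:59105106-59105133, plus strand: gcgacgcggtaTTTGAAtcctggaacaa
CDK1, chr10:60778159-60778186, plus strand: agtataataaaTTTGAActgtgccaatg
TOP2A, chr17:40418074-40418101, minus strand: gagtggtgcctTTTGAAgcctctctagt
PLK1, chr16:23678849-23678876, plus strand: ccagcgccgcgTTTGAAttcggggagga

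E2F sites were searched on both strands as TTTCCCGC, TTTCGCGC, TTTGCCGC or TTTGGCGC, letters that do not overlap a CHR but may overlap each other on opposite strands. They were present in 10 of 15 S promoters (66.7%), in 5 of 13 G1/S promoters (38.5%) and in 1 of 15 G2/M promoters, against 3.33% of all promoters. CCAAT boxes, read on both strands, stood in 12 of 15 S, 11 of 15 G2/M and 4 of 13 G1/S promoters, against 35.7% of all promoters. A match is a description of these letters in this window and not evidence of a bound factor. In the windows below the E2F letters are in capitals, and they read on the opposite strand in CDT1 and PCNA.
CDT1, chr16:88803743-88803772, plus strand: ccagggcgcccGCGGGAAAtttggcgggaa
PCNA, chr20:5126663-5126692, minus strand: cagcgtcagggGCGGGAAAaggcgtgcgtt
MCM6, chr2:135876577-135876606, minus strand: agggctttgcaTTTGGCGCgaaatcccttt
E2F1, chr20:33686387-33686416, minus strand: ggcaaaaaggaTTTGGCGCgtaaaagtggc

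Among the RNA-seq libraries, DOX 3 stood apart. It held 21687906 reads on genes, which was 5.94% of all its counts, those without a gene included. Another 88.4% of its counts were alignments that were not unique. The other 5 libraries held 45887231 to 57824136 reads on genes, or 19.7% to 30.8% of their counts. These may not be shares of reads, because it is not stated whether each alignment of a read was counted on its own. Results are therefore given for all 6 libraries and without DOX 3. The RNA of EIF4EBP1, the induced gene, was measured in CPM, the reads on a gene scaled to library depth, at 153, 154 and 168 CPM in the DMSO libraries and 257, 279 and 285 CPM in the DOX libraries, with a log2 fold change of 0.79 (SE 0.093). Every DOX library was above every DMSO library (two-sided exact permutation p = 0.1, the smallest that 3 against 3 libraries allow), and the counts cannot assign reads to the construct or to the endogenous gene. The edgeR quasi-likelihood test with Benjamini-Hochberg adjustment gave an adjusted p of 0.303 with 6 libraries and 0.0000108 without DOX 3. All 8 genes fixed as markers of the kidney line had at least 10 reads in every library, with a summed level of 1111 to 1208 CPM in DMSO and 1230 to 1522 CPM in DOX. Markers of other cell types summed to 5.18 to 5.78 CPM in DMSO and 2.73 to 5.14 CPM in DOX for skin (9 of 10 genes matched, 4 at 0 in every library), to 2.10 to 2.41 and 1.94 to 2.86 CPM for blood, and to 14.0 to 16.4 and 16.0 to 31.5 CPM for fibroblasts.

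In DMSO all 55 cell cycle genes were expressed, and most varied little among the control libraries. Per length, as reads per kilobase of exon scaled to depth (RPKM, mean ± SD, n = 3), S genes had a median level of 39.5, G2/M genes of 33.8 and G1/S genes of 20.8. PCNA, the sliding clamp of the replication fork, was highest at 167 ± 9.57 RPKM. It was followed by MYBL2 at 123 ± 8.28 and TOP2A, the topoisomerase that untangles mitotic chromosomes, at 119.6 ± 3.82, and these last levels lay within their spread of each other. The 6 MCM helicase genes ranged from 36.2 RPKM (MCM5) to 109.8 RPKM (MCM3). CCNB1, cyclin B1, stood at 95.1 ± 5.03 RPKM, and CDK4 at 70.8 ± 1.89 RPKM was the second G1/S gene by level. The lowest level of each phase belonged to CDKN1B (6.35 ± 0.222 RPKM), POLA1 (8.85 ± 0.227 RPKM) and CDC25C (10.3 ± 0.312 RPKM). The length is the union of exons over all annotated transcripts of a gene, so the order per length depends on the annotation. POLA1, with 15547 bases of exon, had a DMSO mean of 138 CPM, above ORC6 at 70.9 CPM. Over the 55 genes the coefficient of variation had a median of 3.67% among DMSO libraries, with CDC6 highest at 20.8%. Among the DOX libraries the median was 17.3%, and between DOX 1 and DOX 2 alone it was 4.86%.

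**Figure D1:**
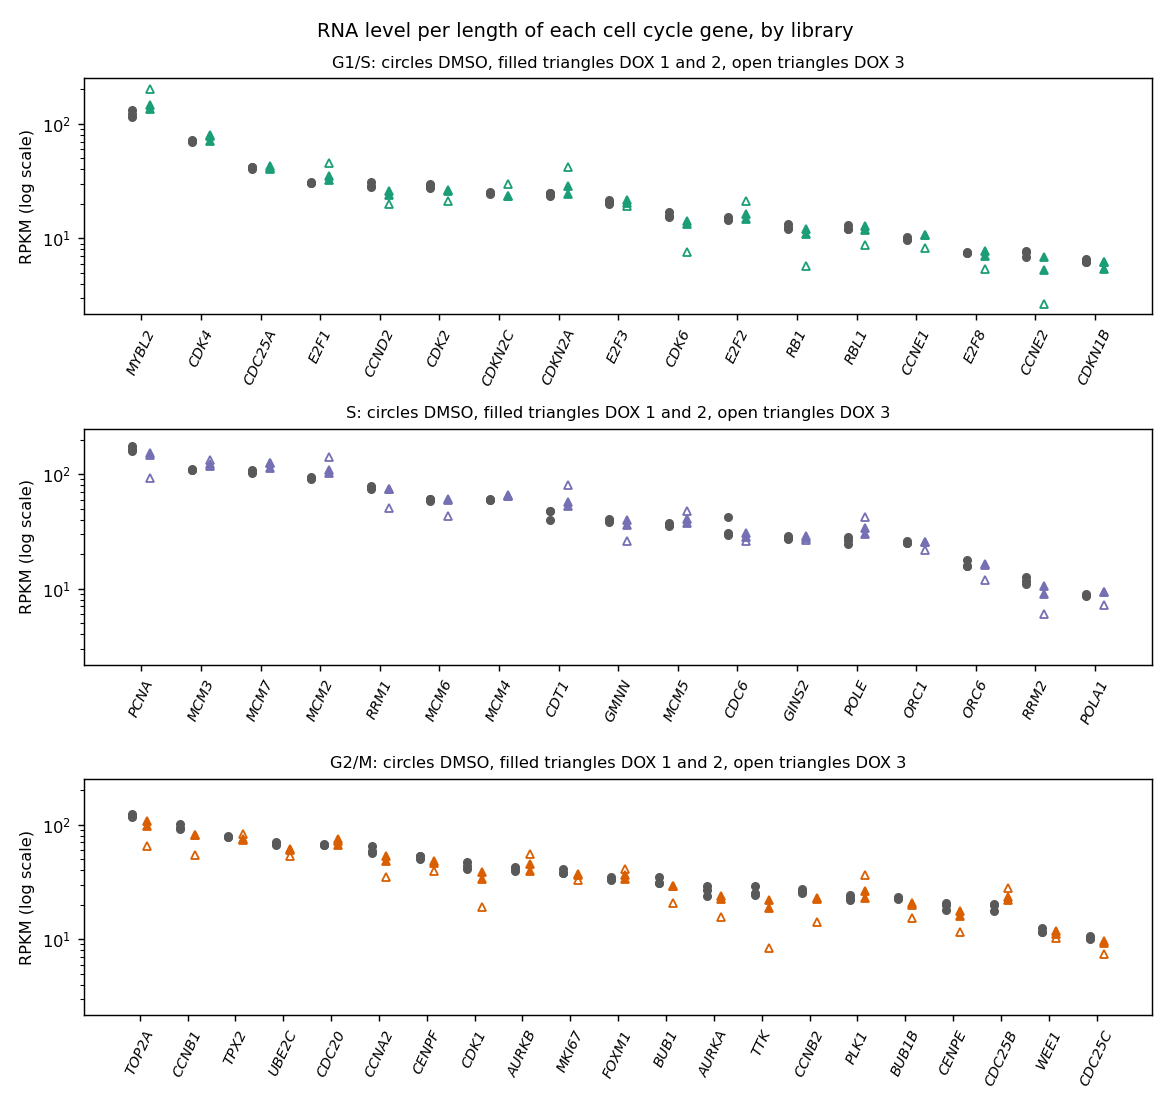
RNA level per length (RPKM, log scale) of each of the 55 genes in the 6 RNA-seq libraries, by phase and ordered by DMSO mean. Grey circles are DMSO 1 to 3, filled triangles DOX 1 and DOX 2, open triangles DOX 3. PCNA at 166.5 RPKM was the highest DMSO mean and CDKN1B at 6.35 RPKM the lowest, and the open triangles lie apart from the other libraries for most genes.

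The comparison of doxycycline with DMSO describes how the RNA of these genes differed after doxycycline, which induces 4EBP1-4A. No cells without the construct were among the samples, so doxycycline itself and 4EBP1-4A cannot be told apart. The differences were small, with negative values for most G2/M genes and positive values for most MCM genes. With all 6 libraries no gene passed the edgeR test at an adjusted p under 0.05, in either direction, among the 20552 tested (0%) or among the 55 members, whose adjusted p ran from 0.303 to 0.990. At an unadjusted p under 0.05 there were 884 lower genes (4.3%) and 2189 higher genes (10.7%), with 5 members on each side. These were CCND2, RRM2, CCNA2, CCNB1 and TOP2A among the lower and MYBL2, CDT1, MCM2, POLE and CDC25B among the higher. This balance moved with the processing: scaling by library totals gave 2 lower and 9 higher members, among 2.25% and 15.9% of all genes, and no filter on low counts gave 14 lower and 5 higher, among 6.55% and 6.95%. The DESeq2 Wald test called 2 genes lower (0.00973%) and 1 higher (0.00487%), none of them a member, and the higher gene was EIF4EBP1. The log2 fold change was negative for 36 members and positive for 19, where 49.7% of all genes were negative and 50.3% positive, and scaling by library totals gave 29 negative members and 26 positive, where 40.5% of all genes were negative. Its median was -0.13 over the members, -0.24 in G2/M, -0.038 in S and -0.022 in G1/S, against 0.0029 over all genes. Leaving out DOX 3, 673 genes were called lower (3.29% of 20459) and 769 higher (3.76%), and among the members 8 were lower and 2 higher. The called members that fell were CCND2 and CDK6 of G1/S, RRM2 of S and CCNA2, CCNB1, CDK1, TTK and TOP2A of G2/M, and those that rose were CDT1 and POLE of S. Their adjusted p ran from 0.0230 to 0.0458, close under the threshold, and the next member, CDC25B, had 0.0517. In whole-population RNA, fewer cells in a phase and less RNA per cell cannot be told apart.

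**Figure D2:**
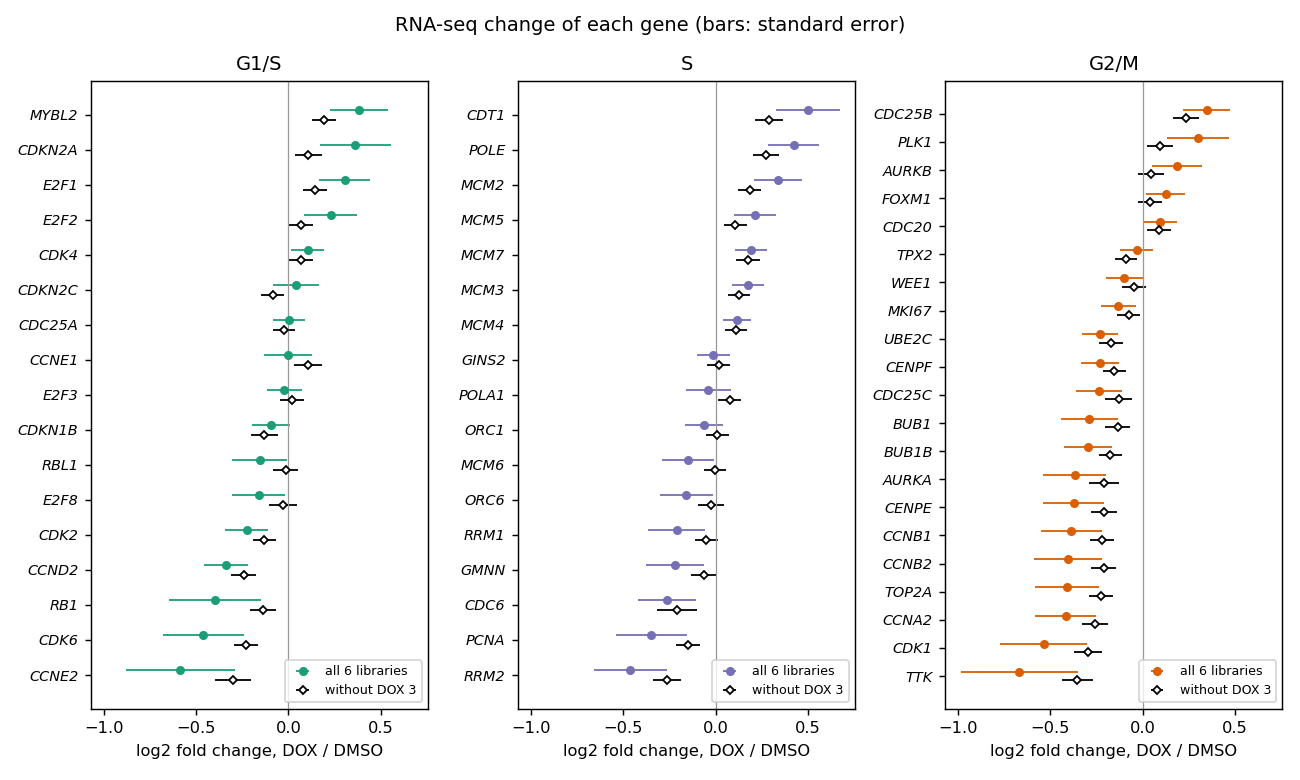
Log2 fold change of each gene, DOX over DMSO, by phase, from the edgeR fit with all 6 RNA-seq libraries (filled circles) and without DOX 3 (open diamonds), with bars of 1 standard error. TTK at -0.67 and CDT1 at 0.50 are the ends of the range with 6 libraries, and 48 of 55 genes lie closer to 0 without DOX 3.

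Of the 7 genes for G1 cyclins, CDKs and their phosphatase, 5 had a negative log2 fold change with 6 libraries. Over all genes 49.7% were negative. CCND2, cyclin D2 (chr12:4269771-4305353; positions are from GENCODE 44 on GRCh38), was measured at 225, 228 and 250.0 CPM in the DMSO libraries and 206, 190.1 and 159 CPM in the DOX libraries. The groups did not overlap, and DOX 3 was lowest. Its log2 fold change was -0.34 (SE 0.12) with 6 libraries and -0.24 (SE 0.067, adjusted p = 0.0379) without DOX 3. CDK6 (chr7:92604921-92836573), a partner of D cyclins, was measured at 209, 189 and 193 CPM in the DMSO libraries and 173, 163 and 93.4 CPM in the DOX libraries. Here too every DOX library was below every DMSO library, with DOX 3 far below DOX 1 and DOX 2. The log2 fold change of CDK6 was -0.46 (SE 0.22), and -0.23 (SE 0.066, adjusted p = 0.0415) without DOX 3. CDK4, the other D cyclin partner and the more abundant, was measured at 218, 214 and 225 CPM in the DMSO libraries and 218, 241 and 247 CPM in the DOX libraries, and its groups overlapped. Among the rest, cyclin E2 (CCNE2) and CDK2 did not overlap, at log2 fold changes of -0.59 (SE 0.29) and -0.23 (SE 0.12), whereas cyclin E1 (CCNE1) and the phosphatase CDC25A stood at -0.0033 (SE 0.13) and 0.0044 (SE 0.086). Without overlap, 4 of these 7 genes were lower and none was higher, where 18.9% of all genes tested lay lower and 19.7% higher without overlap.

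The E2F and pocket protein genes went both ways. MYBL2, the B-Myb factor that acts with MuvB at G2/M genes, was measured at 320.2, 366 and 339 CPM in the DMSO libraries and 377, 404 and 557 CPM in the DOX libraries. All DOX libraries were above all DMSO libraries, with DOX 3 highest. Its log2 fold change was 0.38 (SE 0.16), and 0.19 (SE 0.067, adjusted p = 0.0821) without DOX 3. The activators E2F1, E2F2 and E2F3 had log2 fold changes of 0.30, 0.23 and -0.022, of which only E2F1 did not overlap. The repressor E2F8 and the pocket proteins RB1 and RBL1 had -0.16, -0.40 and -0.16, all with overlapping groups. In RB1 the value came mainly from DOX 3, at 36.9 CPM beside 77.6 and 69.7 CPM in the other DOX libraries. The CDK inhibitors CDKN1B (p27), CDKN2A (p16 and ARF) and CDKN2C (p18) overlapped as well. CDKN1B was measured at 57.8, 57.3 and 61.1 CPM in the DMSO libraries and 57.3, 49.9 and 57.8 CPM in the DOX libraries, and of its DOX libraries only DOX 2 stood clearly below the DMSO range.

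Of the 11 origin licensing genes, 6 lay higher in all DOX libraries than in all DMSO libraries and none lay lower, against 19.7% and 18.9% of all genes. CDT1 (chr16:88803789-88809258), the MCM loader, had the largest positive difference of the list and was measured at 111, 132 and 131 CPM in the DMSO libraries and 145, 159 and 224 CPM in the DOX libraries. DOX 3 was highest, and DMSO 1 was lowest. The log2 fold change of CDT1 was 0.50 (SE 0.17), and 0.29 (SE 0.075, adjusted p = 0.0303) without DOX 3. MCM2 was measured at 432, 449 and 436 CPM in the DMSO libraries and 482, 516 and 668 CPM in the DOX libraries, with a log2 fold change of 0.34 (SE 0.13), and 0.18 (SE 0.061, adjusted p = 0.0700) without DOX 3. MCM3 was measured at 397, 407 and 396 CPM in the DMSO libraries and 428, 445 and 482 CPM in the DOX libraries, and MCM7 at 540.3, 529.6 and 512 CPM in the DMSO libraries and 566, 626 and 617 CPM in the DOX libraries. For these helicase subunits DOX 1 and DOX 2 were already above the DMSO range, and their log2 fold changes without DOX 3 were 0.12 (SE 0.06, adjusted p = 0.195) for MCM3 and 0.18 (SE 0.063, adjusted p = 0.0896) for MCM7, which missed the threshold. MCM4 at 0.12 (SE 0.077) and MCM5 at 0.21 (SE 0.11) were also higher without overlap, and MCM6 at -0.15 (SE 0.14) was the only MCM subunit with a negative value. ORC1 and ORC6, subunits of the origin recognition complex, had -0.061 and -0.16, the loader CDC6 had -0.26, and the CDT1 inhibitor GMNN had -0.22.

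At the replication fork and in dNTP supply the genes were split. POLE (chr12:132623753-132687376), the catalytic subunit of the leading strand polymerase, was measured at 306, 348 and 326 CPM in the DMSO libraries and 373, 417 and 525 CPM in the DOX libraries. The groups did not overlap, DOX 3 was highest, and the log2 fold change was 0.42 (SE 0.14), or 0.27 (SE 0.069, adjusted p = 0.0277) without DOX 3. RRM2 (chr2:10120698-10211725), the regulated subunit of ribonucleotide reductase, was measured at 107, 101 and 115 CPM in the DMSO libraries and 96.5, 82.6 and 55.2 CPM in the DOX libraries. It lay lower in every DOX library, with a log2 fold change of -0.46 (SE 0.20), or -0.27 (SE 0.076, adjusted p = 0.0421) without DOX 3. PCNA was measured at 248, 222 and 231 CPM in the DMSO libraries and 216, 206 and 129 CPM in the DOX libraries. Its groups did not overlap either, but the gap between DMSO 2 and DOX 1 was small, and the log2 fold change without DOX 3 was -0.15 (SE 0.065, adjusted p = 0.161). POLA1, the catalytic subunit of DNA polymerase alpha, was measured at 141, 137 and 134 CPM in the DMSO libraries and 145, 145 and 112 CPM in the DOX libraries. It lay above DMSO in DOX 1 and DOX 2 and below it in DOX 3, so that its log2 fold change was -0.038 with DOX 3 and 0.076 without. RRM1, the large reductase subunit, had -0.21, and GINS2, part of the replicative helicase, -0.011.

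Of the 8 genes of mitotic entry, 6 had a negative log2 fold change and 3 were called lower without DOX 3. Of all genes, 49.7% were negative with 6 libraries and 3.29% were called lower without DOX 3. CCNA2, cyclin A2 (chr4:121816444-121823883), was measured at 179.9, 157 and 163 CPM in the DMSO libraries and 146, 132 and 95.3 CPM in the DOX libraries. CCNB1 (chr5:69167135-69178245) was measured at 245, 227 and 222 CPM in the DMSO libraries and 199, 198 and 133 CPM in the DOX libraries. CDK1 (chr10:60778331-60794852), the kinase they activate, was measured at 185, 162 and 169 CPM in the DMSO libraries and 150.0, 129.9 and 75.0 CPM in the DOX libraries. In all 3 genes every DOX library was below every DMSO library, and DOX 3 was lowest. Their log2 fold changes with 6 libraries were -0.42 (SE 0.16), -0.39 (SE 0.16) and -0.54 (SE 0.23). Without DOX 3 they were -0.26 (SE 0.071, adjusted p = 0.0377), -0.22 (SE 0.064, adjusted p = 0.0458) and -0.30 (SE 0.074, adjusted p = 0.0268). CCNB2, cyclin B2, was of like size at -0.40 (SE 0.19), and -0.21 (SE 0.067, adjusted p = 0.0575) without DOX 3. CDC25C, a phosphatase that activates CDK1, was measured at 35.3, 33.3 and 33.9 CPM in the DMSO libraries and 31.8, 30.7 and 24.5 CPM in the DOX libraries, again without overlap. CDC25B, a phosphatase of the same family, was the only G2/M gene higher in all DOX libraries, at 0.35 (SE 0.13). The CDK1 inhibitor kinase WEE1 and the factor FOXM1 had -0.10 and 0.12, with overlapping groups.

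Among mitotic kinases, TTK (chr6:80003887-80042527), the MPS1 kinase of the spindle checkpoint, had the largest negative difference of the list and was measured at 135, 110.4 and 116 CPM in the DMSO libraries and 102, 86.4 and 38.5 CPM in the DOX libraries. DOX 3 lay far below the other DOX libraries, which were themselves below the DMSO range. Its log2 fold change was -0.67 (SE 0.32), and -0.36 (SE 0.084, adjusted p = 0.0230) without DOX 3. The checkpoint kinases BUB1 and BUB1B and the centrosomal kinase AURKA did not overlap either, at -0.29, -0.30 and -0.37. PLK1 and AURKB, kinases of mitotic progression, had positive values of 0.30 and 0.19 with overlapping groups. In PLK1 the DOX 1 library lay inside the DMSO range, and DOX 3 was highest.

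Of the 7 spindle, chromosome and APC/C genes, 6 had a negative log2 fold change, where 49.7% of all genes did. TOP2A (chr17:40388525-40417896) was measured at 790.0, 745 and 752 CPM in the DMSO libraries and 686, 617 and 419 CPM in the DOX libraries. The groups did not overlap, and the log2 fold change was -0.41 (SE 0.17), or -0.23 (SE 0.064, adjusted p = 0.0414) without DOX 3. MKI67, the Ki-67 proliferation antigen, was measured at 485, 529.8 and 482 CPM in the DMSO libraries and 471, 476 and 420.1 CPM in the DOX libraries, and CENPF, a kinetochore protein, at 668, 662 and 621 CPM in the DMSO libraries and 596, 573 and 491 CPM in the DOX libraries. Neither overlapped, but their log2 fold changes without DOX 3 were -0.077 (SE 0.063, adjusted p = 0.475) for MKI67 and -0.15 (SE 0.061, adjusted p = 0.124) for CENPF. The kinetochore motor CENPE and the ubiquitin-conjugating enzyme UBE2C of the APC/C had -0.37 and -0.23 without overlap, and the spindle factor TPX2 and the APC/C activator CDC20 had -0.034 and 0.10 with overlap. Counted over the phase, 14 of 21 G2/M genes lay lower without overlap and 1 higher, against 4 and 2 of 17 in G1/S and 2 and 7 of 17 in S, where 18.9% of all genes lay lower and 19.7% higher.

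Within each phase, the DOX libraries were not alike. The median over G2/M genes of log2 CPM relative to the DMSO mean was -0.13 in DOX 1, -0.16 in DOX 2 and -0.48 in DOX 3, while the DMSO libraries lay between -0.022 and 0.049. Over S genes the medians were 0.012, 0.052 and -0.22, and over G1/S genes -0.013, -0.068 and -0.11. DOX 3 was thus farthest from DMSO in every phase, and for 51 of the 55 genes it was the DOX library farthest from the DMSO mean. Leaving it out, 48 genes kept the sign of their log2 fold change, 48 had a smaller one, and the median size went from 0.23 to 0.13. The G2/M median then was -0.15, the S median 0.016 and the G1/S median -0.024. Of the 21 G2/M genes, 16 were negative in each fit, where 50.1% of all genes were negative without DOX 3.

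**Figure D3:**
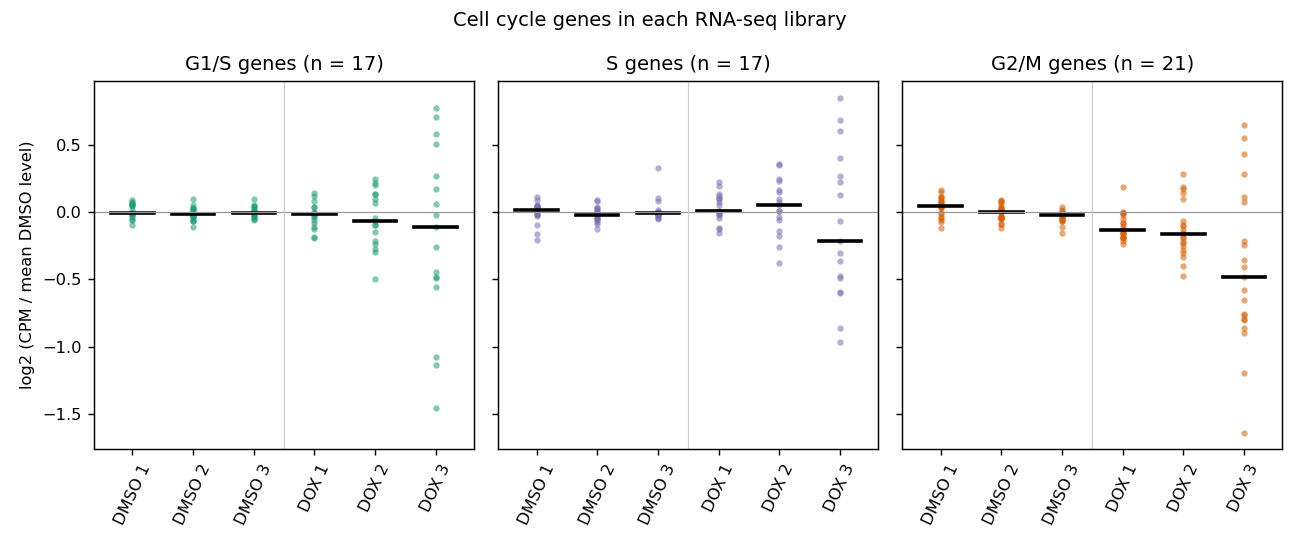
Log2 of CPM over the mean DMSO level for the G1/S (17), S (17) and G2/M (21) genes in each RNA-seq library. Points are genes and black bars are medians. In G2/M the bars stand at -0.13, -0.16 and -0.48 in DOX 1, DOX 2 and DOX 3, and the spread of the points in DOX 3 is the widest in each panel.

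The differences went with the GC content of the transcripts. GC percent was that of the canonical transcript, the transcript that the annotation marks as representative of a gene. Over the 55 genes the log2 fold change and this GC percent had a Pearson r of 0.92 and a Spearman rho of 0.90. This is a description across genes that share the same 6 libraries and not a test. Without DOX 3 the values were 0.84 and 0.83, and over all genes tested they were 0.62 and 0.67 with 6 libraries. Of the 23 members under 45% GC, 22 had a negative log2 fold change, as had 14 of the 17 from 45% to 52% and 0 of the 15 at or above 52%, bounds that were chosen after the values were seen. The negative members below 45% included all 10 G2/M and all 7 S genes in that range, and the positive members at or above 52% included 5 genes of each phase. The lower genes TTK, CDK1 and CDK6 had 36.4%, 35.4% and 39.7% GC, and the higher genes CDT1, MYBL2 and POLE 64.3%, 60.0% and 56.4%. In single libraries the Spearman rho of the members' deviation from the DMSO mean with GC was -0.70, 0.68 and 0.29 in DMSO 1 to 3. In DOX 1 to 3 it was 0.68, 0.86 and 0.91. The DMSO deviations were taken from the mean of the same 3 libraries, so opposite signs among them follow in part from that choice. A rank correlation also does not show how large the deviations were. The median GC was 45.2% in G2/M, 47.7% in S and 46.3% in G1/S, against 48.5% over all genes.

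In an alternative added after the data were seen, the trend with GC of each library's deviation from the DMSO mean was taken out. This removes any difference from DMSO that follows GC, whatever its source. The G2/M median was then -0.083 with 6 libraries and -0.074 without DOX 3. Of the 21 G2/M genes, 16 were negative with 6 libraries and 19 without DOX 3, where 49.6% and 50.7% of all genes were. In that last fit 410 genes were called lower (2.02% of 20305) and 401 higher (1.97%). Among the members CCND2 (-0.21 (SE 0.052, adjusted p = 0.0396)), CCNB2 (-0.17 (SE 0.043, adjusted p = 0.0397)) and UBE2C (-0.22 (SE 0.045, adjusted p = 0.0202)) fell and POLA1 (0.16 (SE 0.041, adjusted p = 0.0493)) rose. Of the 10 members called without DOX 3 before the correction, only CCND2 was called after it. POLE at 0.17 (SE 0.045, adjusted p = 0.0553) and CCNA2 at -0.16 (SE 0.046, adjusted p = 0.0661) missed the threshold narrowly. The rest of those no longer called had an adjusted p of 0.106 to 0.352. Among them TTK had -0.15 (SE 0.049, adjusted p = 0.106), CDK1 -0.07 (SE 0.039, adjusted p = 0.352) and CDT1 0.087 (SE 0.045, adjusted p = 0.314). EIF4EBP1, at 62.9% GC, had 0.41 (SE 0.13, adjusted p = 0.301) after correction with 6 libraries and 0.57 (SE 0.049, adjusted p = 0.000263) without DOX 3. The part of base composition, and of the low share of counts on genes in DOX 3, in the cell cycle differences was not tested.

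**Figure D4:**
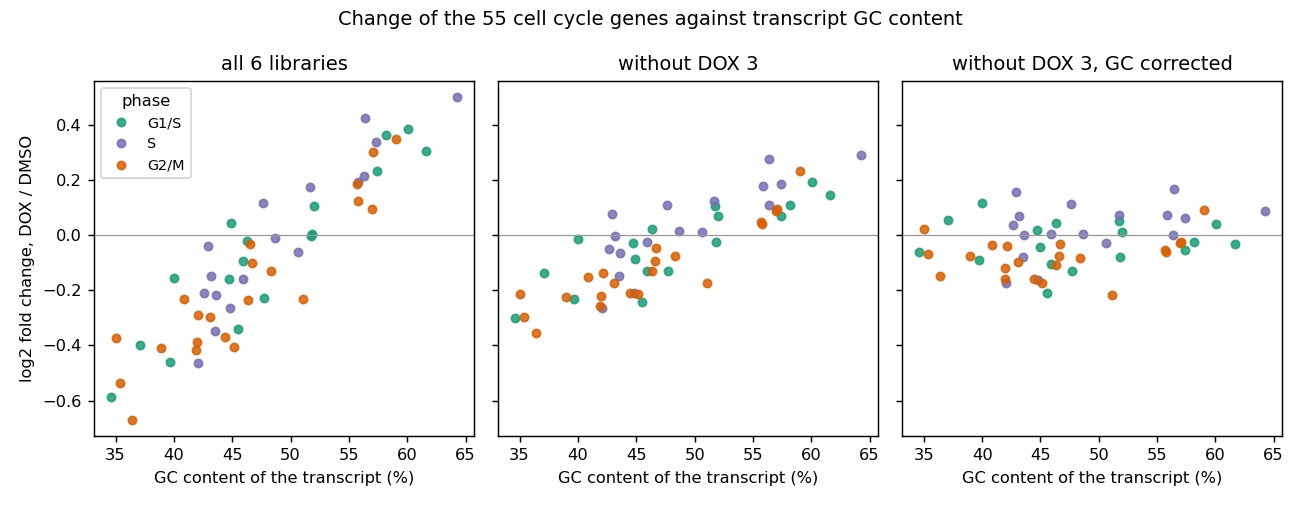
Log2 fold change of the 55 genes, DOX over DMSO, against the GC content of their canonical transcripts (%), coloured by phase, with all 6 libraries, without DOX 3, and without DOX 3 after GC correction. Pearson r across genes is 0.92, 0.84 and 0.28 in the 3 panels, and all 15 genes at or above 52% GC lie above 0 in the first.

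The RNA differences were then set beside the promoter elements. The 9 G2/M genes with a CHR had a median log2 fold change of -0.29, with 7 negative, and the 6 without one had -0.30, with 4 negative. Genes that share the CHR letters shown above lay on both sides, with CDK1 at -0.54, CCNB2 at -0.40 and TOP2A at -0.41 but PLK1 at 0.30. Among S genes the 10 with an E2F match had a median of 0.081, with 5 negative, and the 5 without one had -0.21, with all 5 negative. Among G1/S genes the medians were 0.0044 for the 5 with a match, with 2 negative, and 0.019 for the 8 without, with 4 negative. Of those with a printed E2F window, CDT1 had 0.50, E2F1 0.30, MCM6 -0.15 and PCNA -0.35. These medians and counts come from few genes and were not tested, and 49.7% of all genes were negative.

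Another 141 genes of the cell cycle, 27 of G1/S, 55 of S and 59 of G2/M, were measured in the same fits. With 6 libraries none was called. At an unadjusted p under 0.05, 15 were lower and 10 higher, where 4.3% and 10.7% of all genes were. The log2 fold change was negative for 91, where 49.7% of all genes were negative, and its median over the 141 genes was -0.19. Without overlap 53 lay lower and 17 higher, where 18.9% and 19.7% of all genes did. By phase these were 30 lower and 4 higher of 59 in G2/M, 13 and 12 of 55 in S and 10 and 1 of 27 in G1/S. Without DOX 3, 15 were called lower, 13 of them of G2/M, and 7 higher, 6 of them of S, where 3.29% and 3.76% of all genes were. After GC correction without DOX 3, 5 were called in each direction, where 2.02% and 1.97% of all genes were. The lower genes with the smallest p were MAD2L1, the MAD2 checkpoint protein, at -0.42 (SE 0.14), the spindle protein NUSAP1 at -0.51 (SE 0.19) and the CDK subunit CKS2 at -0.81 (SE 0.30). The higher genes were PKMYT1, the MYT1 kinase that inhibits CDK1, at 0.67 (SE 0.22), the polymerase subunit POLD1 at 0.56 (SE 0.18) and the chromatin assembly subunit CHAF1B at 0.29 (SE 0.10). All 6 had an adjusted p of 0.303 with 6 libraries and were called without DOX 3, and after GC correction without DOX 3 CKS2 (-0.41 (SE 0.073, adjusted p = 0.0121)) and CHAF1B (0.23 (SE 0.041, adjusted p = 0.0135)) were still called. GC content against log2 fold change had a Pearson r of 0.81 over these 141 genes.

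The Ribo-seq libraries held few reads on these genes. Of 3638279 Ribo-seq reads on genes the 55 members together had 169 (0.00465%), against 2900737 of 279077426 RNA-seq reads (1.04%). The 10 genes with the most Ribo-seq reads took 87.8% of them (76.7% to 92.6% by library), whereas the 10 highest genes of RNA-seq took 16.1%. The members were therefore scarce beyond the lower depth of 210186 to 1002424 Ribo-seq reads on genes per library, and the cause was not tested. By library these were 5, 23 and 65 reads in DMSO and 40, 17 and 19 in DOX. There were 28 members with 0 reads, and a count of 0 allows up to 3 reads, which is 2.99 to 14.3 CPM depending on the library and covers counting error only. Translation efficiency (TE), the change of Ribo-seq beyond that of RNA-seq, was tested in a single edgeR model of all 12 libraries for the 1334 genes with at least 10 reads in each assay. It called 2 genes lower (0.15%) and 0 higher, with 191 (14.3%) and 97 (7.27%) at an unadjusted p under 0.05. No member was called, and 1 member, MCM7, was among the 97 (adjusted p = 0.211).

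Only 5 members had 10 or more Ribo-seq reads. CENPF had 1, 3 and 22 reads in DMSO and 15, 2 and 2 in DOX. CDK6 had 1, 7 and 11 in DMSO and 11, 1 and 7 in DOX. The groups overlapped in both genes, and the highest counts of CENPF were in DMSO 3 and DOX 1, the deepest Ribo-seq libraries of their groups. The log2 change in TE was 0.14 (SE 1.37, edgeR adjusted p = 0.976) for CENPF and 0.83 (SE 1.14, edgeR adjusted p = 0.774) for CDK6. MCM2 had 1, 1 and 7 reads in DMSO and 4, 0 and 0 in DOX, with a log2 change in TE of -1.24 (SE 1.54, edgeR adjusted p = 0.738). MCM7 had 0 reads in every DMSO library and 1, 8 and 1 in DOX, and MKI67 had 0, 2 and 8 in DMSO and 0, 0 and 1 in DOX. For these last genes a group was at or under 3 reads, and no fold is given. With standard errors above 1 on the log2 scale, a change in TE of several-fold in these genes was not detectable with these reads.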

How the data were processed

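Total RNA and ribosome-protected fragments of 293T4A cells were sequenced by the authors, who removed linkers and ribosomal RNA from the fragments and mapped reads with STAR. Their methods name both GRCh38 and GRCh37, and the sample labels GRCh37 and Ensembl 75, so genes were matched by Ensembl ID. GENCODE 44 on GRCh38 supplied positions, exon length over all transcripts and the GC content of the canonical transcript. The deposited values are raw read counts per gene, not normalized. Reads with more than 1 alignment and reads without a gene were left out, as were 92 spike-in and 88 viral rows, so reads shared with pseudogenes are lost from a member. Those without a gene were 69.1% to 94.1% of RNA-seq and 97.1% to 99.1% of Ribo-seq counts, in which a read may count more than 1 time. The strand setting of the counting is not given in the sources used here, so that overlapping antisense genes cannot be told apart. The authors' table of their own TE comparison (dispersion, p-values, TE ratios and log2 changes) was used only for gene symbols.

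RNA-seq was tested with edgeR 4.0.16 (quasi-likelihood, TMM factors) in R 4.3.3 on the 3 DMSO and 3 DOX libraries, for genes that reached 10 reads in 3 or more of them, with Benjamini-Hochberg adjustment over all genes and a call at 0.05. CPM are reads scaled to the reads on genes of each library after TMM, and RPKM are CPM per kilobase of exon. TE was tested as the interaction of assay and treatment over 12 libraries, for genes with at least 10 reads summed in each assay. Both fits were run on simulated counts with known changes, which in RNA-seq were larger than those of the members here. The simulation held no GC trend and no library of deviating composition such as DOX 3. The fits were therefore not tested under these conditions. Alternatives were DESeq2 1.42.0, other scalings and filters, each replicate left out and a replicate block. A correction for GC content was added after the data were seen. Its offset was a lowess on GC (span 0.3) of each library's deviation in log2 CPM from the DMSO mean.

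The members and gene lists were chosen with earlier results of these data known. Values in every library are given for EIF4EBP1, for members called with 6 libraries or without DOX 3 (at most 5 per phase and direction), for the 2 highest and the lowest member of each phase by DMSO level per length, for the member with the largest difference in each direction, and for members with at least 10 Ribo-seq reads. At most 3 of the other cell cycle genes are named per direction, by smallest p. RNA-seq depth was 21687906 to 57824136 reads on genes, and Ribo-seq depth 210186 to 1002424.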

Additional observations from a re-analysis of the deposited data

How the results depend on the processing

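Leaving out DOX 3 was the choice that changed most: it raised the calls from 0 to 673 lower and 769 higher genes, and from 0 to 8 lower and 2 higher members, and with GC correction as well the counts were 410 and 401 genes and 3 and 1 members. Leaving out any other library gave no call, so that the counts over the 6 libraries left out in turn ran from 0 to 673 lower and 0 to 769 higher genes, and from 0 to 8 and 0 to 2 members. The DESeq2 Wald test called 2 genes lower and 1 higher, and no member. The G2/M median was -0.083 with GC correction and -0.074 with it and without DOX 3. The G1/S median was 0.076 with library totals, -0.061 with no filter and -0.068 without DOX 1, and ran from -0.068 to -0.014 over the libraries left out. Library totals moved the median of all genes to 0.097. These signs turned with library totals: CCNE1 (0.089), E2F3 (0.076), CDKN1B (0.0063), ORC1 (0.034), GINS2 (0.088), POLA1 (0.054) and TPX2 (0.070). With no filter, CDC25A (-0.038) and CDKN2C (-0.0050) turned. Leaving out libraries in turn, the log2 fold change ran from -0.068 to 0.11 for CCNE1, from -0.024 to 0.029 for CDC25A, from -0.086 to 0.11 for CDKN2C, from -0.066 to 0.021 for E2F3, from -0.098 to 0.0095 for ORC1, from -0.042 to 0.016 for GINS2, from -0.098 to 0.076 for POLA1 and from -0.093 to 0.0026 for TPX2. The cause of these changes was not tested.

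The deviations of same-numbered DMSO and DOX libraries from their group means correlated at 0.23, -0.17 and 0.027. With so few libraries per group, these values cannot show whether same-numbered samples were prepared together. The main fit used no pairing. With a replicate block 0 genes were called lower and 0 higher in RNA-seq, the medians were -0.13 over the members, -0.023 in G1/S, -0.049 in S and -0.24 in G2/M, and 0 genes were called lower in TE. For TE, at least 1 read per assay gave 4 lower and 3 higher genes, library totals gave 1 lower, and leaving out replicates gave 0 to 1 lower and 0 to 1 higher. The TE of CENPF turned to -0.066 with library totals and ran from -1.19 to 2.01 over the replicates left out. The Ribo-seq values of the members rest on 169 reads in all.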

Other observations

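By phase, the other 141 cell cycle genes had median RNA-seq log2 fold changes of -0.20 in G1/S (27 genes, 20 negative), -0.12 in S (55 genes, 30 negative) and -0.26 in G2/M (59 genes, 41 negative) with all 6 libraries. Over all genes 49.7% were negative. After GC correction and without DOX 3 the medians were -0.045, 0.041 and -0.049. Their promoters held a CHR in 33 of 53 G2/M genes (62.3%) and an E2F match in 13 of 46 S genes (28.3%).

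CENPE, with 35.1% GC, was the G2/M member whose value moved farthest under the GC correction among those without overlap: its log2 fold change was -0.37 with 6 libraries and 0.14 after correction, and 0.021 after correction without DOX 3. UBE2C, with 51.1% GC, moved the other way, from -0.23 to -0.30 with 6 libraries and to -0.22 after correction without DOX 3 (edgeR adjusted p = 0.0202). Both genes were chosen after their values were seen.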
